A study of Danio rerio with 4 samples.

Results

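The genes described here encode proteins of the extracellular matrix, inhibitors of its proteolysis, and the integrins that bind cells to it. They were chosen by symbol from tables of TPM (transcripts per 1000000 transcripts), and 124 of the 29027 listed genes belonged to the set. The set held 27 genes of the basement membrane, 15 fibrillar collagens, 32 other collagens and 31 integrin subunits. It also held 7 fibrillins and fibulins, 4 inhibitors of matrix metalloproteinases (TIMPs), 2 SPARC genes, 2 fibronectins and 4 genes of intracellular proteins that are only named after a partner, such as itgb1bp1. The names of 71 members matched the Ensembl symbol table and 106 matched RefSeq symbols or synonyms, and 11 carry a copy label such as COL5A2_(2_of_2). Reads shared between duplicated copies could have been split between them, so the values of single copies are uncertain.

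Endothelial cells rest on a basement membrane, a sheet built from a laminin network and a collagen IV network that nidogens and perlecan join. Fibrillar collagens form the tension-bearing fibrils of the tissue around it, and the collagen II, IX and XI family makes the fibrils of cartilage and of the sheath around the notochord. Integrins are pairs of an alpha and a beta subunit, and the pair decides which matrix protein a cell binds. Lymphatic vessels at their blind ends are known for a thin and interrupted basement membrane.

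The study compared homozygous tie1 mutant zebrafish (tie1-/-) with their pooled wild-type and heterozygous siblings (tie1+/?). Tie1 is an orphan receptor tyrosine kinase of endothelial cells. All embryos carried Tg(kdrl:EGFP), which marks endothelium, and Tg(lyve1:DsRed), which marks veins and lymphatics, and cells positive for both were sorted from trunks and tails at 47 hours post fertilization. Mutants were taken only if they had blood flow. The mutant allele and the number of embryos behind each library were not given in the sources used here. There were 2 mutant and 2 sibling libraries. Nothing in the labels says that the 2 libraries of a group came from separate pools of embryos. The spread between libraries may thus be technical. The limma tests pooled this spread over genes of similar level, so a p-value rests little on the spread of its own gene.

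The mutant libraries stood apart from the siblings in their general level of low values. Over 331 genes of odorant, taste and related receptors and lens crystallins, which endothelium is not presumed to express, the median TPM was 2.26 and 3.66 in sibling replicates 1 and 2. It was 8.38 in mutant replicate 1 and 11.1 in mutant replicate 2. The 95th percentile of these genes is called the background limit of a library, and it was 3.93 and 6.44 TPM in siblings against 13.8 and 18.8 TPM in mutants. Expression of tie1 itself was 61.0 and 31.0 TPM in siblings against 16.7 and 10.2 TPM in mutants. The 10.2 TPM of mutant replicate 2 was under the background limit of that library and under its median of 11.1 TPM. Both mutant values lay below both sibling values (limma log2 fold change -1.66 ± 0.78 SE, adjusted p-value 0.0605), and an exact permutation test, two-sided, gave p = 0.333, which is as low as 2 libraries against 2 can reach. All fold changes are mutant minus sibling on the log2(TPM + 1) scale, over 28301 genes. All listed TPM summed to 813000 and 736600 in siblings against 602400 and 481100 in mutants. Unless rescaling is stated, TPM were compared without correction for this difference. The sum of 25 endothelial genes was 7599 and 6124 TPM in siblings, then 2870 and 918 TPM in mutant replicates 1 and 2. In sorted pools, fewer cells of a type and less RNA per cell cannot be told apart.

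In the sibling cells a few matrix genes stood far above the rest. The summed TPM of the 124 members was 3821 and 3778 in siblings against 2543 and 1929 in the mutants, which was 0.47% and 0.513% of all listed TPM in siblings against 0.422% and 0.401% in the mutants. With the background median subtracted from each gene the sums were 3564 and 3356 TPM in siblings against 1618 and 667 TPM in mutants. The gene sparc and the collagen II, IX and XI genes led the set. Of the 124 members, 33 were above the background limit in both sibling libraries, 13 in both mutant libraries and 11 in all 4. For all 29027 listed genes these counts were 7320, 2145 and 1949. By library, 9994 and 9073 genes were above the limit in siblings against 4912 and 3083 in mutants. A further 75 members were at or under the limit in every library, and 3 of these, itgb1b, fbln1 and TIMP3, were listed at 0 in every library and were not tested.

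Of the 121 members tested, limma called 3 lower in the mutants, namely sparc, col9a2 and timp2b, where 4.43% of all genes tested were called lower. With no adjustment, 4 members were lower at p under 0.05, where 1705 of all 28301 genes were. It called 58 members higher, where 44.6% of all genes were called higher. Of those 58, 55 were no higher than the background limit in every library, and the other 3 exceeded it in both mutants, among them col6a3 and col19a1. The median log2 fold change was 1.18 over the members and 1.17 over all genes. Both groups of libraries were free of overlap with at least a 2-fold difference for 78 members that were higher and 10 that were lower, against 57.0% and 9.47% of all genes. At any size of difference, the groups did not overlap for 93 members that were higher and 15 that were lower, against 65.8% and 12.0% of all genes. The calls depended on how the libraries were scaled. The listed TPM summed to less than 1000000 in every library, and to less in both mutants than in either sibling library. With each library rescaled to a sum of 1000000, limma called 70 members higher and 1 lower, against 52.7% and 2.53% of all genes. The genes sparc, col6a3 and col19a1 were among the calls. The members apart by at least 2-fold were then 93 higher and 5 lower, against 68.8% and 6.02%. Scaled by median of ratios or by quantiles limma called 0 members and 0 of all genes. At an unadjusted p under 0.05, 3 members were higher and 12 lower by median of ratios, and 3 and 3 by quantiles. Over all genes these counts were 1218 and 4110 of 28283 by median of ratios, and 1335 and 1828 of 28301 by quantiles. The variance was moderated far less in those fits, with 4.96 and 4.98 degrees of freedom per gene against 56600 on the deposited scale. A call lost there thus does not show a smaller difference. By median of ratios the log2 fold changes of sparc, col9a2 and timp2b were -4.18, -3.52 and -3.25, and by quantiles they were -1.49, -0.68 and -1.43. Members apart by at least 2-fold numbered 1 higher and 21 lower by median of ratios, against 1.98% and 21.0% of all genes, and 5 higher and 6 lower by quantiles, against 7.51% and 8.81%. The median log2 fold change of all genes, 1.17 on the deposited scale, was 0.03 by median of ratios and 0.05 by quantiles. With the background median subtracted, those apart were 4 higher and 22 lower of 50 members tested, against 12.2% and 39.3% of genes.

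The collagens of cartilage and notochord sheath were the most abundant collagens in the sorted cells. The gene col9a1b, an alpha chain of collagen IX, which coats collagen II fibrils, had 609 and 793 TPM in siblings against 341 and 163 TPM in mutants. Both mutant values lay below both sibling values (limma log2 fold change -1.55 ± 0.94 SE, adjusted p-value 0.144). Its partner chain col9a2 fell from 401 and 368 TPM to 96.4 and 76.4 TPM (limma log2 fold change -2.15 ± 0.95 SE, adjusted p-value 0.0496). The groups were clearly apart and the replicates of each group close, with a ratio between replicates of 1.09 in siblings against 1.26 in the mutants. The chain col9a3 had 147 and 131 TPM in siblings against 98.7 and 44.4 TPM in mutants (limma adjusted p-value 0.320). The call of col9a2 held in 4 of 14 alternatives, among them both fits with 1 mutant library. It was lost with a pseudocount of 5 (limma adjusted p-value 0.0617), with a mean TPM of at least 5 (0.0520) and rescaled to a sum of 1000000 (0.0644). It was also lost with a replicate block (0.0643), with no filter (0.0835) and without either sibling library. The log2 fold change of col9a2 was -2.09 and -2.21 without sibling replicates 1 and 2, and -2.31 and -1.98 without mutant replicates 1 and 2. It was -0.68 by quantiles, -2.31 with background subtracted and -3.52 by median of ratios.

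Collagen II, the main fibril of cartilage, is encoded by col2a1a and col2a1b. The TPM of col2a1a was 334 and 306 in siblings against 169 and 93.1 in the mutants, with no overlap between the groups (limma log2 fold change -1.34 ± 0.95 SE, adjusted p-value 0.214). That of col2a1b was 43.1 and 47.9 in siblings against 37.8 and 29.0 in the mutants (log2 fold change -0.44, limma adjusted p-value 0.654). Collagen XI nucleates and limits the width of these fibrils. Its chain col11a1a had 163 and 196 TPM in siblings against 86.4 and 40.5 TPM in mutants, and col11a2 had 96.6 and 122 TPM against 79.1 and 31.0 TPM. Neither passed the test (limma adjusted p-values 0.135 and 0.282), although the groups did not overlap for either. Of the 9 members of collagens II, IX and XI, 7 were above the limit in all 4 libraries. Each of these 7 averaged over 20 TPM and was lower in both mutants without overlap. The same held for 12.0% of all genes and for 63.5% of those averaging 20 TPM or more. The other pair, col9a1a and col11a1b, was at or near background in every library, and col9a1a was called higher (limma log2 fold change 1.87 ± 0.54 SE, adjusted p-value 0.0106) with 2.27 and 2.94 TPM in siblings against 10.7 and 13.8 TPM in mutants.

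The share of these collagens among the members was similar in all 4 libraries once background was subtracted. After the median of the receptor and crystallin genes was subtracted from each library, the 6 genes col2a1a, col9a1b, col9a2, col9a3, col11a1a and col11a2 made up 48.7% and 56.5% of the summed TPM of all members in siblings. In the mutants they made up 50.7% in replicate 1 and 57.3% in replicate 2. With no subtraction the share was 45.8% and 50.7% in siblings against 34.3% and 23.3% in the mutants. These 6 genes were put together after their values were seen. With background subtracted, the ratio of col9a1b to col9a3 was 4.20 and 6.19 in siblings against 3.68 and 4.56 in the mutants. That of col9a1b to col9a2 was then 1.52 and 2.17 in siblings against 3.78 and 2.33 in the mutants. After subtraction the ratio to col9a2 was thus higher in both mutants, and the ratio to col9a3 overlapped between the groups. With no subtraction the ratio to col9a2 overlapped, and the ratio to col9a3 was lower in both mutants. The order of the groups thus depended on the subtraction.

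Markers of notochord and cartilage were present in the same libraries. Of 14 such genes, 7 were above the limit in both siblings and 3 in both mutants, where 7320 and 2145 of all 29027 listed genes were. The summed TPM of the 14 was 1604 and 2414 in siblings against 1445 and 646 in the mutants. The proteoglycan gene epyc led this list with 1009 and 1844 TPM in siblings against 1148 and 453 TPM in mutants. The signal gene shha, made by notochord and floor plate, had 59.4 and 83.5 TPM in siblings against 30.5 and 9.11 TPM in mutants. Of the same list, cmn had 250 and 244 TPM in siblings, then 142 and 38.0 TPM in mutant replicates 1 and 2. For chad the sibling levels were 218 and 148 TPM, and the mutant levels 58.0 and 19.3 TPM in the same order. The genes ntd5 and sox9b were also above the limit in both siblings. The other 7 genes of the list, among them noto, sox9a, matn1 and acana, were at or under the limit in every library. None of the 14 was listed at 0 throughout. The part of these cells in the collagen values was not tested.

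Collagen I, the main collagen of skin and connective tissue, was less abundant. Expression of col1a1a was 88.6 and 87.5 TPM in siblings against 64.4 and 34.0 TPM in mutants (limma log2 fold change -0.90 ± 0.90 SE, adjusted p-value 0.384). The mutant values were both below the siblings, and the sibling values differed little from each other. Its partner col1a2 had 28.5 and 18.7 TPM in siblings against 17.0 and 16.4 TPM in mutants, and the second copy col1a1b had 11.9 and 8.31 TPM against 24.02 and 17.2 TPM. Neither passed the test (limma adjusted p-values 0.610 and 0.221). Collagen V, which starts collagen I fibrils, was low, with 5.06 and 7.12 TPM of col5a1 in siblings against 9.04 and 12.1 TPM in mutants. Its copy COL5A2_(2_of_2) had 13.1 and 9.76 TPM in siblings against 8.79 and 13.8 TPM in mutants, so its groups overlapped. Both mutant values of col5a1 and of COL5A2_(2_of_2) were under the background limit, so these comparisons are against background. For col1a2 and col1a1b mutant replicate 2 was under its limit, so those are partly against background. Over the 15 fibrillar collagens the median log2 fold change was 0.71, with 3 called higher, all at or under the limit in every library, and 0 called lower, where 44.6% and 4.43% of all genes were. Of the 15, 6 were higher and 3 (col2a1a, col11a1a and col11a2) lower in both mutants by at least 2-fold without overlap, against 57.0% and 9.47% of all genes.

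Genes of fibroblasts and mural cells, which make much of the collagen I of a tissue, were low. Of 19 such genes 8 were above the limit in both siblings and 0 in both mutants, where 7320 and 2145 of all 29027 listed genes were. The summed TPM of the 19 was 202 and 187 in siblings against 206 and 189 in the mutants. With the background median subtracted from each gene the sums were 164 and 123 TPM in siblings against 68.0 and 10.7 TPM in mutants. PDGFRB was listed at 0 in every library, and the part of such cells in the collagen I values was not tested. Of 24 genes of the epidermis, 9 were above the limit in both siblings and 3 in both mutants, against the same counts of all genes. The summed TPM of the 24 was 1756 and 1056 in siblings against 995 and 544 in the mutants.

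**Figure D1:**
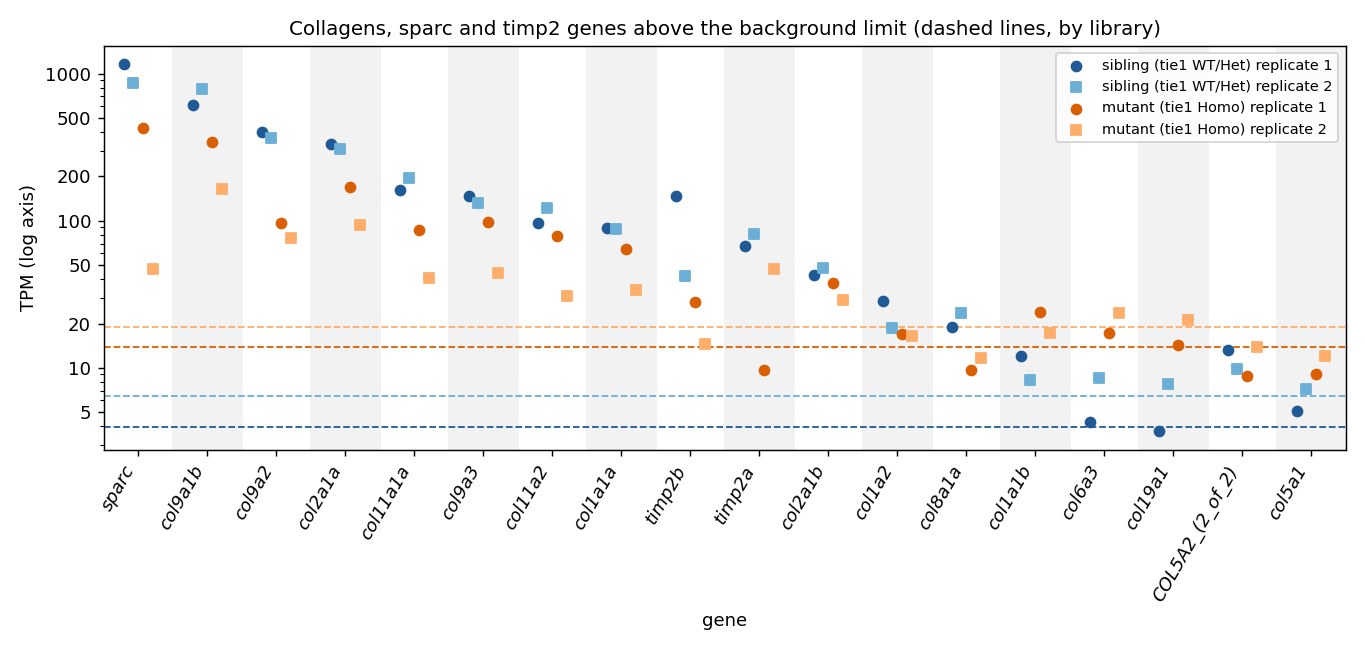
TPM (log axis) of collagen, sparc and timp2 genes above the background limit in both libraries of a group, by gene. Each point is a library, blue for siblings and orange for mutants, and each dashed line is the background limit of the library of its colour. The most abundant genes lie lower in both mutants, from sparc to col11a2, while col6a3 and col19a1 lie higher in both.

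A pair of less abundant collagens went the other way. The gene col6a3, a chain of the beaded microfibrils that surround many cells, rose from 4.25 and 8.48 TPM to 17.3 and 23.7 TPM in mutants (limma log2 fold change 1.59 ± 0.65 SE, adjusted p-value 0.0360). The mutant values were above the limit of their libraries, and so were the sibling values. The other collagen VI genes, col6a1, col6a2 and col6a6, were also called higher but were at or under the limit in every library. The gene col19a1, a fibril-associated collagen found near basement membranes, rose from 3.69 and 7.81 TPM to 14.3 and 21.1 TPM (limma log2 fold change 1.52 ± 0.63 SE, adjusted p-value 0.0374). Sibling replicate 1 was under its background limit for col19a1, so that fold is partly against background. For both genes the mutant values exceeded the limit by little, and without sibling replicate 1 the limma adjusted p-values were 0.305 for col6a3 and 0.319 for col19a1. On the deposited scale the receptor and crystallin genes had a median log2 fold change of 1.46, and 44.6% of all genes were called higher. The log2 fold changes of col6a3 and col19a1 were 0.34 and 0.28 by median of ratios, 1.48 and 1.31 with background subtracted, 1.67 and 1.46 by quantiles, and 2.13 and 2.06 rescaled to a sum of 1000000. Without sibling replicate 2 both calls held. Without mutant replicate 1 the limma adjusted p-values were 0.0984 and 0.100, and without mutant replicate 2 they were 0.318 and 0.329. The short-chain collagen gene col8a1a had 19.0 and 23.7 TPM in siblings against 9.65 and 11.6 TPM in mutants, under the limit in both (limma log2 fold change -0.94 ± 0.70 SE, adjusted p-value 0.237).

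The largest fall in the set was that of sparc, which encodes a secreted glycoprotein that binds collagen and modulates the contact of cells with matrix. It had 1159 and 870 TPM in siblings, then 429 and 47.0 TPM in mutant replicates 1 and 2. The groups did not overlap (limma log2 fold change -2.81 ± 0.95 SE, adjusted p-value 0.0195), but the mutant libraries differed from each other by 9.13-fold and the siblings by 1.33-fold. The size of the fall rests on mutant replicate 2: without it the log2 fold change was -1.22 (limma adjusted p-value 0.00325), and without mutant replicate 1 it was -4.39. Without sibling replicate 1 or 2 the call was lost, with limma adjusted p-values of 0.342 and 0.226. The related gene sparcl1 was at background in every library.

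The inhibitors timp2a and timp2b bind matrix metalloproteinases, and their mammalian relative TIMP2 also takes part in the activation of MMP2. The gene timp2b fell from 147 and 42.2 TPM to 28.1 and 14.5 TPM in mutants (limma log2 fold change -1.91 ± 0.85 SE, adjusted p-value 0.0494). The sibling libraries differed by 3.49-fold, and mutant replicate 2 was under its background limit, so the fold is partly against background. Without sibling replicate 1 the log2 fold change was -1.02 (limma adjusted p-value 0.470), and without mutant replicate 2 it was -1.46 (0.275). Without sibling replicate 2 the limma adjusted p-value was 0.0551, and without mutant replicate 1 the call held (-2.37, limma adjusted p-value 0.0165). For timp2a the values were 66.9 and 81.3 TPM in siblings, then 9.63 and 47.1 TPM in mutant replicates 1 and 2 (limma log2 fold change -1.72 ± 0.85 SE, adjusted p-value 0.0731). Mutant replicate 1 was under its background limit and mutant replicate 2 was well above it, whereas timp2b was lowest in mutant replicate 2. The gene timp4a was at background throughout.

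The rank of a gene among all listed genes of its library does not depend on how the library is scaled. By rank, sparc was 85th and 98th in siblings, 138th in mutant replicate 1 and 736th in mutant replicate 2. The rank of col9a1b was 198 and 113 in siblings against 185 and 156 in the mutants, and that of col2a1a was 417 and 385 in siblings against 453 and 300 in the mutants. The ranks of these collagens thus overlapped between the groups, although their TPM did not. The rank of col9a2 was 334 and 305 in siblings against 846 and 384 in the mutants, lower in the order in both mutants. The rank of timp2a was 1929 and 1498 in siblings, 9071 in mutant replicate 1 and 734 in mutant replicate 2.

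**Figure D2:**
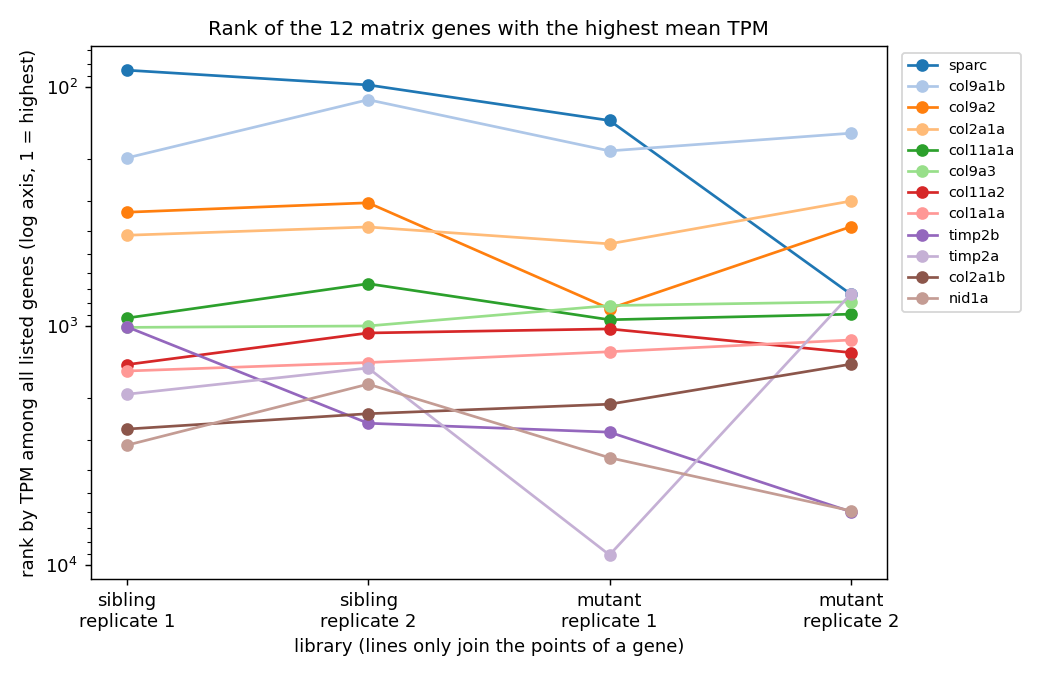
Rank by TPM among the 29027 listed genes (log axis, 1 is the highest) of the 12 matrix and integrin genes with the highest mean TPM, in each of the 4 libraries. Lines join the points of a gene. Most collagens stay near the same rank, while sparc drops to 736 in mutant replicate 2 and timp2a to 9071 in mutant replicate 1.

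Basement membrane genes were expressed at low levels in siblings and mostly could not be told from background in the mutants. Of the 27 genes, 9 were above the limit in both siblings, and of these 4 were above it in neither mutant and 5 in mutant replicate 1 only. Among all 7320 listed genes above it in both siblings, 3055 were above it in neither mutant and 1896 in mutant replicate 1 only. limma called 11 of the 27 higher and 0 lower, where 44.6% and 4.43% of all genes were, and 10 of the 11 were at or under the limit in all 4 libraries. The nidogen gene nid1a, whose product links laminin to collagen IV, was the most abundant, with 34.4 and 67.1 TPM in siblings against 19.9 and 14.5 TPM in mutants. The groups did not overlap, but the difference did not pass the test (limma log2 fold change -1.44 ± 0.80 SE, adjusted p-value 0.111).

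Among the laminins, lama4 encodes the alpha chain typical of blood vessels. It had 31.5 and 17.9 TPM in siblings against 20.1 and 15.7 TPM in mutants, and the groups overlapped (log2 fold change -0.40, limma adjusted p-value 0.648). The beta chains lamb1a and lamb1b pair with it. The TPM of lamb1a was 10.6 and 16.3 in siblings against 6.78 and 11.8 in the mutants, while that of lamb1b was 18.2 and 27.9 in siblings against 41.7 and 13.0 in the mutants. The gamma chain lamc1 had 13.6 and 8.22 TPM in siblings against 18.1 and 13.4 TPM in mutants. None of these 3 passed the test (limma adjusted p-values 0.499, 0.955 and 0.510), and lamb1b had its highest value in mutant replicate 1 and its lowest in mutant replicate 2.

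Collagen IV genes lie in adjacent pairs in the zebrafish genome, and in the RefSeq annotation of the assembly GRCz12tu col4a1 neighboured col4a2, col4a3 neighboured col4a4 and col4a5 neighboured col4a6. The pair col4a1 and col4a2 makes the collagen IV of most basement membranes. Expression of col4a1 was 12.8 and 11.2 TPM in siblings against 22.6 and 15.9 TPM in mutants, and that of col4a2 was 8.30 and 8.91 TPM against 11.2 and 13.4 TPM. Both genes had higher values in both mutants, and neither passed the test (limma adjusted p-values 0.440 and 0.525). Only the 22.6 TPM of col4a1 was above a mutant limit. The gene col4a5 had 6.83 and 4.55 TPM in siblings against 19.2 and 12.1 TPM in mutants (limma adjusted p-value 0.0639), and only its values in sibling replicate 1 and mutant replicate 1 exceeded a limit. The genes col4a3, col4a4 and col4a6 were called higher and were at or under the limit in every library. The perlecan gene hspg2 had 5.15 and 4.59 TPM in siblings against 9.62 and 10.7 TPM in mutants, and the endostatin precursor gene col18a1 had 4.96 and 7.44 TPM against 8.67 and 14.6 TPM. Neither exceeded the limit in a mutant library.

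Integrin genes were low in all 4 libraries. Of the 31 subunits 19 were at or under the limit in every library, 4 were above it in both siblings and itga1 alone was above it in all 4. Of all 29027 listed genes these counts were 16542, 7320 and 1949. The collagen receptor subunit itga1 had 18.9 and 21.6 TPM in siblings against 18.7 and 19.4 TPM in mutants (limma log2 fold change -0.08 ± 0.74 SE, adjusted p-value 0.929). Its log2 fold change was between -1.40 and 0.45 over the alternatives, so no direction is given. The laminin receptor subunit itga6b had 9.86 and 19.1 TPM in siblings against 23.4 and 17.9 TPM in mutants (limma adjusted p-value 0.519), and the fibronectin receptor subunit itga5 had 7.41 and 11.2 TPM against 11.4 and 15.7 TPM (0.496). The subunit itgb5, which pairs with alpha V, had 15.2 and 13.6 TPM in siblings against 7.54 and 9.57 TPM in mutants. Its mutant values were both below the siblings and under the limit (limma log2 fold change -0.70 ± 0.65 SE, adjusted p-value 0.347).

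The beta-1 subunit pairs with most alpha subunits, yet its genes were listed at low values. The gene itgb1a had 1.89 and 2.93 TPM in siblings against 5.17 and 10.8 TPM in mutants, and itgb1b.1 had 2.799 and 3.15 TPM against 8.07 and 10.3 TPM. All of these were under the background limit, the gene itgb1b.2 exceeded it in sibling replicate 1 alone at 8.12 TPM, and itgb1b was listed at 0. Several subunits were above the limit in a single sibling library. The gene itga2.3, an alpha-2 copy, had 21.4 TPM in sibling replicate 1 and 5.36 TPM in sibling replicate 2. The leukocyte subunit itgb2 had 3.51 TPM in sibling replicate 1 and 15.8 TPM in sibling replicate 2, with 11.8 and 12.2 TPM in mutants. The alpha V gene itgav had 8.27 and 4.03 TPM in siblings against 10.8 and 12.0 TPM in mutants. The gene itga4, whose product binds fibronectin and VCAM1, had 8.82 and 3.91 TPM in siblings against 8.995 and 13.8 TPM in mutants. Of these 4 genes none passed the test (limma adjusted p-values between 0.202 and 0.860).

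All 14 integrins that limma called, of 30 tested, were called higher, where 44.6% of all genes were, and were at or under the limit in every library. The thrombocyte subunit itga2b was the member of the integrin class with the largest called rise, from 2.04 and 3.15 TPM to 10.02 and 11.2 TPM (limma log2 fold change 1.71 ± 0.53 SE, adjusted p-value 0.0150). The 18 tested integrins under the limit had medians of 2.29, 3.57, 7.49 and 10.8 TPM in sibling replicates 1 and 2 and mutant replicates 1 and 2. The receptor and crystallin genes had 2.27, 3.66, 8.38 and 11.1 TPM in the same order. The median log2 fold change of these 18 integrins was 1.44, against 1.46 for the receptor and crystallin genes. Over 20 myeloid genes the summed TPM was 1314 and 1202 in siblings against 1117 and 526 in the mutants, and over 11 thrombocyte genes it was 305 and 326 against 309 and 139. The part of blood cells in the integrin values was not tested.

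**Figure D3:**
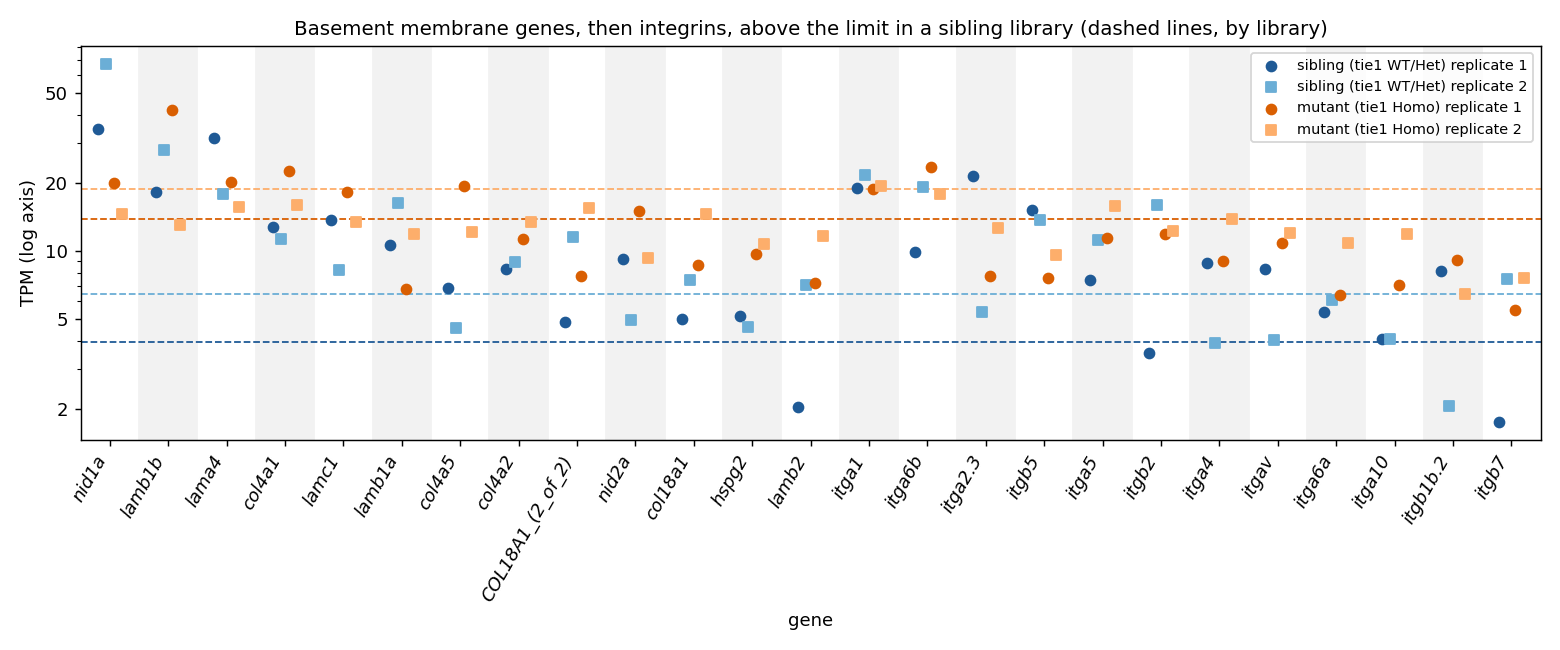
TPM (log axis) of the basement membrane genes (from nid1a to lamb2) and then the integrin genes (from itga1 to itgb7) that exceeded the background limit in at least 1 sibling library. Each point is a library, blue for siblings and orange for mutants, and dashed lines are the background limits in the same colours. Of the genes shown itga1 alone exceeds both mutant limits, and nid1a is the highest in siblings.

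The remaining classes were close to background. The fibronectin gene fn1a had 4.21 and 7.99 TPM in siblings against 15.2 and 11.2 TPM in mutants (log2 fold change 1.03, limma adjusted p-value 0.131), and fn1b was under the limit throughout. The 6 tested fibrillin and fibulin genes had higher values in both mutants, where 65.8% of all genes were higher without overlap. Of the 6, 4 were called higher, where 44.6% of all genes were, and these 4 were under the limit in every library. The most abundant of the 6, fbln2, had 5.29 and 5.91 TPM in siblings against 7.56 and 9.93 TPM in mutants. Other called rises under the limit were those of the nidogen gene nid2b, at 2.25 and 2.44 TPM against 9.09 and 12.7 TPM, and the hypertrophic cartilage collagen gene col10a1a, at 1.26 and 3.59 TPM against 6.89 and 14.7 TPM. Of the genes named only after a partner, itgb1bp1, whose product binds the tail of the beta-1 integrin, had 22.4 and 31.7 TPM in siblings against 65.1 and 17.9 TPM in mutants. The ceramide transfer gene col4a3bpb had 7.89 and 9.01 TPM against 9.39 and 12.6 TPM.

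The fold change of a member followed its level, as for other genes. Of the 16 members with a mean TPM of at least 20, 3 were called lower and 0 higher by limma, against 28.1% and 1.40% of the 3987 genes at that level. Of these 16, 10 were lower in the mutants by at least 2-fold without overlap and 0 higher, against 57.0% and 4.44% of all genes at that level. Their median log2 fold change was -1.23, and that of the 3987 genes was -1.33. Of the 16, 13 were lower without overlap at any size and 0 higher, against 63.5% and 5.87% of the genes at that level. These shares were near those of other abundant genes and are no result about the members.

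**Figure D4:**
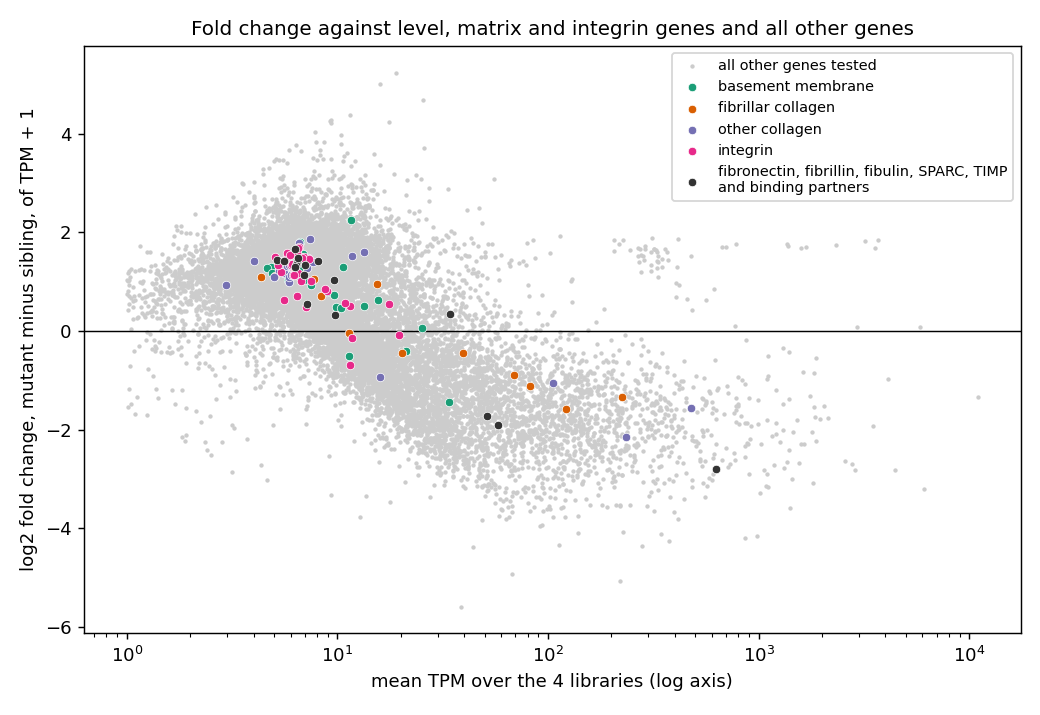
Log2 fold change (mutant minus sibling, TPM + 1) against the mean TPM over the 4 libraries (log axis) for all 28301 genes tested. Grey points are other genes and coloured points are matrix and integrin genes by class. Members with a mean TPM of at least 20 have a median of -1.23, and the members at low levels lie in the cloud of genes with values above 0.

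Other genes of matrix assembly and adhesion were read from 4 lists. Of 40 collagen processing enzymes 5 were called lower and 12 higher by limma, where 4.43% and 44.6% of all genes were, and all 12 were at or under the limit in every library. The falls were p4ha2 and plod1a, which hydroxylate collagen, the chaperone genes crtap and fkbp10b, and pcolcea, an enhancer of procollagen cleavage. Each of these 5 averaged over 20 TPM, a level at which 28.1% of genes were called lower. The gene p4ha2 fell from 76.4 and 47.3 TPM to 8.90 and 10.4 TPM (limma log2 fold change -2.52 ± 0.78 SE, adjusted p-value 0.0145). In neither mutant did p4ha2 exceed the background limit, so the fold is against background. For crtap the values were 131 and 109 TPM in siblings against 11.6 and 50.6 TPM in mutants, and for fkbp10b they were 34.6 and 89.5 TPM against 18.5 and 11.6 TPM (limma adjusted p-values 0.0318 and 0.0448). Mutant replicate 1 was under its limit for crtap, as was mutant replicate 2 for fkbp10b, so these folds are partly against background. In that list of enzymes the median log2 fold change was 0.15.

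Of 31 matrix metalloproteinase and ADAMTS genes 1 was called lower and 22 higher, where 4.43% and 44.6% of all genes were, with 20 of the 22 at or under the limit in every library. The fall was that of mmp23bb, a membrane-linked metalloproteinase, from 193 and 197 TPM to 82.9 and 19.6 TPM (limma log2 fold change -2.24 ± 0.93 SE, adjusted p-value 0.0376). It averaged over 20 TPM, where 28.1% of genes were called lower. The gene adamts15b, which encodes a secreted protease, was called higher, with 3.16 and 6.02 TPM in siblings against 14.2 and 24.5 TPM in mutants (limma adjusted p-value 0.0183), above the limit of both mutant libraries. The gene adamts8a, under the limit throughout, had 2.02 and 2.60 TPM against 10.8 and 11.6 TPM. The median of this list was 1.40.

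Of 78 other matrix glycoproteins and proteoglycans tested, 9 were called lower and 37 higher, where 4.43% and 44.6% of all genes were, with 33 of the 37 at or under the limit in every library. All 9 called lower averaged over 20 TPM, where 28.1% of genes were called lower. The falls included the CCN family genes cyr61 and ctgfa, which encode matrix-associated signalling proteins. The gene cyr61 fell from 210 and 166 TPM to 13.5 and 16.8 TPM (limma log2 fold change -3.55 ± 0.88 SE, adjusted p-value 0.00359), and ctgfa fell from 397 and 191 TPM to 22.6 and 23.3 TPM (limma log2 fold change -3.53 ± 0.92 SE, adjusted p-value 0.00522). For both genes the mutant libraries were close to each other. In neither mutant did cyr61 exceed the background limit, so its fold is against background. The gene tgfbi, whose product binds collagen and integrins, fell from 641 and 745 TPM to 176 and 15.7 TPM (limma log2 fold change -3.67 ± 0.95 SE, adjusted p-value 0.00522). Its mutant libraries were far apart, and mutant replicate 2 was under its limit, so that fold is partly against background. The median of this list was 1.18.

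Of 40 genes of integrin adaptors, focal adhesions and tetraspanins 4 were called lower and 12 higher, where 4.43% and 44.6% of all genes were, with 10 of the 12 at or under the limit in every library. All 4 called lower averaged over 20 TPM, where 28.1% of genes were called lower. The gene tln1, whose product talin couples integrins to actin, fell from 37.0 and 66.0 TPM to 6.44 and 12.0 TPM (limma log2 fold change -2.36 ± 0.76 SE, adjusted p-value 0.0166). Both mutant values were under the limit. The tetraspanin genes cd63 and cd81a, whose products associate with integrins, fell from 911 and 790 TPM to 345 and 56.0 TPM and from 766 and 500 TPM to 294 and 57.5 TPM (limma adjusted p-values 0.0246 and 0.0421). Over the 4 lists together 102 calls were made, and limma made 0 by median of ratios or by quantiles.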

How the data were processed

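Sorted cells of 4 libraries were profiled by RNA sequencing, with SMART-Seq v4 cDNA and NEBNext Ultra II Directional libraries per the labels' protocols. The authors deposited TPM, as the file headers name it. The submitters' processing notes list Trim Galore 0.6.6, cutadapt 2.8, HISAT2 2.2.1, SAMtools 1.7, StringTie 2.1.4 and the build GRCz11. Annotation and strand setting were not given in the sources used here, so overlapping genes cannot be told apart. TPM keeps no read depth, so no counting interval is given.

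The model was a limma 3.58.1 fit (R 4.3.3) of log2(TPM + 1) on group, for the 28301 genes whose TPM averaged 1 or more. It used eBayes with a trend, two-sided p-values and Benjamini-Hochberg adjustment over all of these genes, with 0.05 as the threshold. The SE of a gene comes almost wholly from the trend, so it does not measure that gene's own spread. The script was tested on simulated data. The exact permutation test used scipy 1.17.1.

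Members were found by symbol pattern. By rule, the named members were those above the background limit in both libraries of a group, up to 5 called rises and falls of the largest size without overlap, and the most abundant of each class, and in each list of other matrix genes the 3 largest called changes. Further members and markers were named after their values were seen. The members, lists, classes and background genes were chosen with earlier results of these data known. In all, 14 alternatives were run. A result for 1 named member is not reported here.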

Additional observations from a re-analysis of the deposited data

How the results depend on the processing

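The calls depended on the scaling and on single libraries. By median of ratios, by quantiles, with background subtracted and with no filter on low values, limma called 0 members in place of 58 higher and 3 lower, and the 11 basement membrane, 3 fibrillar collagen, 14 integrin and 102 list calls also became 0 there. With no filter limma called 41 of all 29027 genes higher and 5 lower, and in the other fits it called 0 of all genes. Unadjusted limma p-values under 0.05 were found there for 3 members up and 12 down, 3 and 3, 1 and 4, and 59 and 3. Over all genes they were found for 1218 up and 4110 down of 28283, 1335 and 1828 of 28301, 283 and 2720 of 14276, and 12976 and 1560 of 29027. Background subtraction tested 50 members. With no trend in eBayes the counts were 29 higher and 7 lower, where 8103 and 1986 of all 28301 genes were. The class counts were 7 basement membrane and 9 integrin, and tie1 passed (-1.66, limma adjusted p-value 0.0353). The lower calls numbered 1 with a pseudocount of 5, with a mean TPM of at least 5 and after rescaling to a sum of 1000000, where 70 were higher. Over all genes the lower calls in these 3 fits numbered 1212 of 28301, 1195 of 23995 and 718 of 28374. After that rescaling 14941 of all genes were called higher.

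The same-numbered libraries share only a number. Over the genes tested the deviations of same-numbered libraries from their group means correlated with r = 0.130, and over the 3987 whose TPM averaged 20 or more with r = 0.0289. With the replicate block limma called 75 members higher and 0 lower, where 15263 and 666 of all 28301 genes were. At an unadjusted p under 0.05, 2 members were lower, where 1168 of all genes were, and 6 fibrillar collagens were called.

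The members without overlap and at least 2-fold apart, 78 higher and 10 lower, numbered 9 higher with a pseudocount of 5, 1 and 21 after median-of-ratios rescaling, 5 and 6 after quantile normalization, 4 and 22 after background subtraction, and 93 and 5 after rescaling to 1000000. The counts by class take higher and lower together. The 17 basement membrane genes (16 higher, 1 lower), 9 fibrillar collagens (6 and 3) and 19 integrins (19 and 0) became 3, 3 and 2 with a pseudocount of 5. They became 3, 1 and 1 after quantile normalization. With a pseudocount of 5, 3767 of all 28301 genes were higher and 2365 lower by this measure. The basement membrane and integrin counts were 5 and 3 after median-of-ratios rescaling and 4 and 3 after background subtraction. By median of ratios only 1 member of any class was higher, so most of those 5 and 3 genes were lower. Over all genes 1.98% were higher and 21.0% lower there. The cause of these changes was not tested.

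Leaving out each library in turn gave 0 to 72 higher and 0 to 6 lower calls, 0 to 15 basement membrane, 0 to 4 fibrillar collagen, 0 to 19 integrin and 0 to 98 list calls. The members apart numbered 59 to 83 higher and 8 to 10 lower, with 13 to 18 basement membrane, 4 to 10 fibrillar collagen and 13 to 22 integrin genes. Of all 28174 to 28316 genes tested in these fits, 12775 to 18521 were apart and higher, and 2550 to 3258 were apart and lower. The class and list counts in these fits take higher and lower together. Each fit leaves 1 library in a group, and the number of calls over all genes changed as well. The call counts and the numbers apart are thus no result about the members. A lone library was assumed to vary like the other group. The log2 fold changes of tie1 in these 4 fits ranged from -2.14 to -1.19. The median log2 fold change ranged from 0.984 to 1.454 over the members and from 0.939 to 1.425 over all genes. The direction of sparc, col9a2, timp2b, col6a3 and col19a1 was kept in all 14 alternatives.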

Other observations

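Matrix genes outside the described set, picked after their values were seen, also differed between the libraries. The matrilin genes matn3a and matn3b, which encode adaptor proteins of cartilage matrix, fell from 645 and 628 TPM to 191 and 32.0 TPM and from 171 and 88.3 TPM to 29.7 and 15.7 TPM (limma adjusted p-values 0.0161 and 0.0230). For matn3b mutant replicate 2 was under its limit. The proteoglycan gene spock3 fell from 141 and 76.5 TPM to 6.86 and 11.4 TPM, under the limit of both mutant libraries (limma log2 fold change -3.41 ± 0.81 SE, adjusted p-value 0.00230). The gene mfap4, a macrophage marker in zebrafish, had 180 and 137 TPM in siblings against 680 and 233 TPM in mutants, with no overlap (limma log2 fold change 1.34 ± 0.95 SE, adjusted p-value 0.215). Of the 20 myeloid genes, 5 were called lower and 3 higher, where 4.43% and 44.6% of all genes were. The falls included lyz (344 and 319 TPM in siblings against 35.9 and 21.8 TPM in mutants), srgn, lcp1 and coro1a. The 3 called higher were under the limit in every library. Each of the 5 called lower averaged over 20 TPM, a level at which 28.1% of genes were called lower. The collagen chaperone gene serpinh1b had 97.7 and 122 TPM in siblings against 180 and 55.3 TPM in mutants, so its groups overlapped.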
